A study of Oryza sativa with 6 samples.

Results

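Calcineurin B-like proteins (CBLs) and the kinases they bind (CBL-interacting protein kinases, CIPKs) were examined in rice roots, in the transgenic line Huahui 1 (HH1) and in Minghui 63 (MH63), the parent without the transgene. Members were the genes whose symbol or synonym in the annotation is CIPK or CBL followed by a number. This gave 39 genes, 30 CIPKs and 9 CBLs. Of these, 31 were among the 17905 genes to which the annotation gives a probe set of their own. They had 42 probe sets in all (34 for CIPKs and 8 for CBLs), out of 57194 non-control probe sets. The annotation does not list 34663 of the 57194. CIPK3, CIPK9, CIPK13, CIPK15, CIPK27, CIPK33, CBL1 and CBL7 were not analysed here, since no probe set is listed for them.

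HH1 roots, with the Minghui 63 background and the transgene, were compared with MH63 roots, which have the same background without it. Seedlings of both genotypes were grown to an age of 30 days in nutrient solution in a climate chamber, and each genotype had 3 biological replicates with 1 Affymetrix rice array each. HH1 is 1 transgenic line, so effects of the inserted gene and of the line's own history cannot be told apart. The stated aim of the series was to find genes and pathways that changed in HH1 roots without being intended.

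Calcium ions rise briefly in plant cells under many stresses and nutrient shortages, and CBLs are small EF-hand proteins that bind this calcium. A calcium-loaded CBL binds a CIPK through the kinase's NAF motif, releases it from self-inhibition and carries it to the plasma membrane or the vacuole membrane, where the kinase phosphorylates ion channels and transporters. In roots the network is known for potassium uptake through the channel AKT1, for sodium export through the exchanger SOS1 and for nitrate and ammonium uptake. CIPKs form the SnRK3 group of the SNF1-related kinases. The array measures transcript signals, so neither calcium nor kinase activity is covered by the values below.

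The arrays had nearly equal median signals, from 33.1 to 33.8, and their number limits the precision of every value. HH1 replicate 2 stood apart, being the highest or lowest of the 6 arrays at 51.5% of all tested probe sets, where the other arrays ranged from 22.0% to 34.8%. Of the root markers, the silicon transporters Lsi1 and Lsi2, NRAMP5 and OsSHR1 were above the level of the reporter probes on all 6 arrays, and OsSCR1 was not. That level, the 95th percentile of 64 probe sets for foreign marker genes on each array (37.1 to 42.3), served as background. The 16 probe sets of green shoot markers summed to 838, 2455 and 742 in HH1 replicates 1, 2 and 3 and to 2920, 3078 and 675 in MH63 replicates 1, 2 and 3. The 6 probe sets of seed markers summed to 2510.1, 559.7 and 384 in HH1 replicates 1, 2 and 3 and to 333 to 414 in MH63. The part of shoot or seed tissue in the results below was not tested.

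Most of the network was detected in roots of both genotypes. Of the 31 measured genes, 27 had a probe set above the reporter-probe level on all 6 arrays, among them all 7 measured CBLs and 20 of the 24 measured CIPKs. Among probe sets bright enough to be tested, 34 of 38 for members exceeded that level on all 6 arrays, against 23680 of 28597 for all. CIPK12 and CIPK20 were above it on 5 arrays. CIPK5 and CIPK30 were at or below it on every array, with signals of 10.2 to 21.0 and of 15.6 to 17.6. The plot of signals shows that 5 of the 42 probe sets never exceeded the background.

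**Figure D1:**
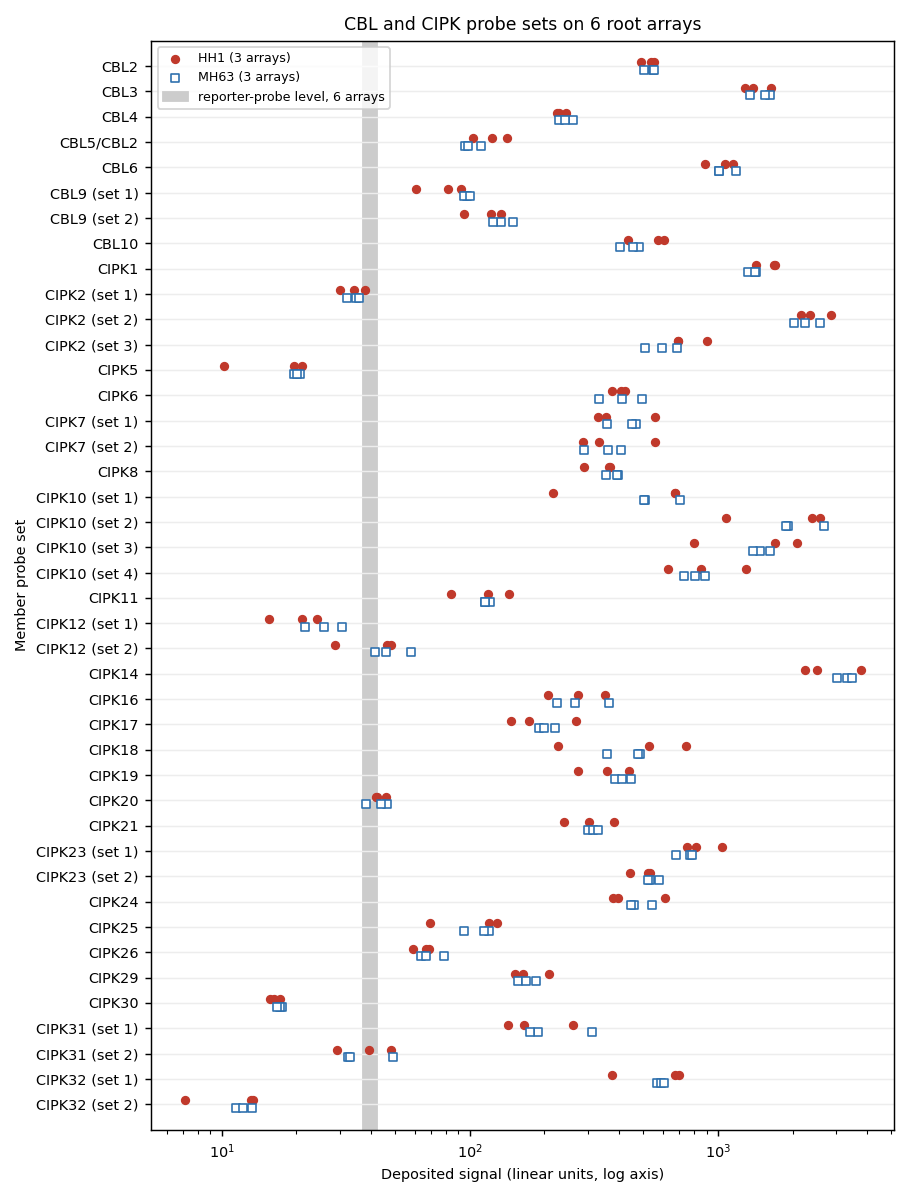
Deposited signal (log axis) of the 42 member probe sets, in rows, on the 3 HH1 arrays (filled circles) and the 3 MH63 arrays (open squares), with the range of the reporter-probe level as a grey band. The points of both genotypes overlap in nearly every row, and CIPK5, CIPK30 and a probe set each of CIPK2, CIPK12 and CIPK32 lie at or left of the band.

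No CBL or CIPK passed the test between HH1 and MH63. Of the 42 probe sets, 38 (29 genes) were bright enough to be tested, and 0 had an adjusted p under 0.05 in limma, with Benjamini-Hochberg adjustment over 28597 probe sets, where 0.112% of all tested probe sets did. At an unadjusted p under 0.05 the count was also 0 of 38, where 4.01% of all tested probe sets passed, and the smallest member p was 0.079. With array weights 3 of 38 members (CIPK14, CIPK19 and a CBL9 probe set) were under it, where 6.14% of all were. Without HH1 replicate 1 it was 1 (CBL10, where 2.95% of all were) and without HH1 replicate 3 also 1 (CIPK1, where 7.18% of all were). In every alternative the count of members past the adjusted threshold stayed at 0. Log2 differences (HH1 minus MH63) ran from -0.34 to 0.35, with a median absolute difference of 0.10 for members and 0.11 for all tested probe sets. Of the members, 26 lay below 0 and 12 above, with a median of -0.061 against -0.014 for all tested probe sets, of which 46.4% lay above 0. Leaving out 1 array gave 10 to 17 members above 0 and 21 to 27 below, with member medians from -0.069 to -0.022, while the median of all tested probe sets ran from -0.035 to 0.0088. In these bulk samples, fewer cells of a type and less RNA per cell cannot be told apart.

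A p that misses the threshold does not show equality, so the 95% interval of each difference was taken from the fit, without adjustment. For 36 of 38 member probe sets (94.7%) it lay within -1 and 1 on the log2 scale, so that a change of that size or more was outside it, against 90.5% of all tested probe sets. For 17 of 38 (44.7%) it lay within a 1.5-fold change either way, against 64.2% of all. The 2 exceptions to the wider limit were CIPK18, from -0.95 to 1.03, and 1 of the 4 probe sets of CIPK10, from -1.35 to 0.76.

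**Figure D2:**
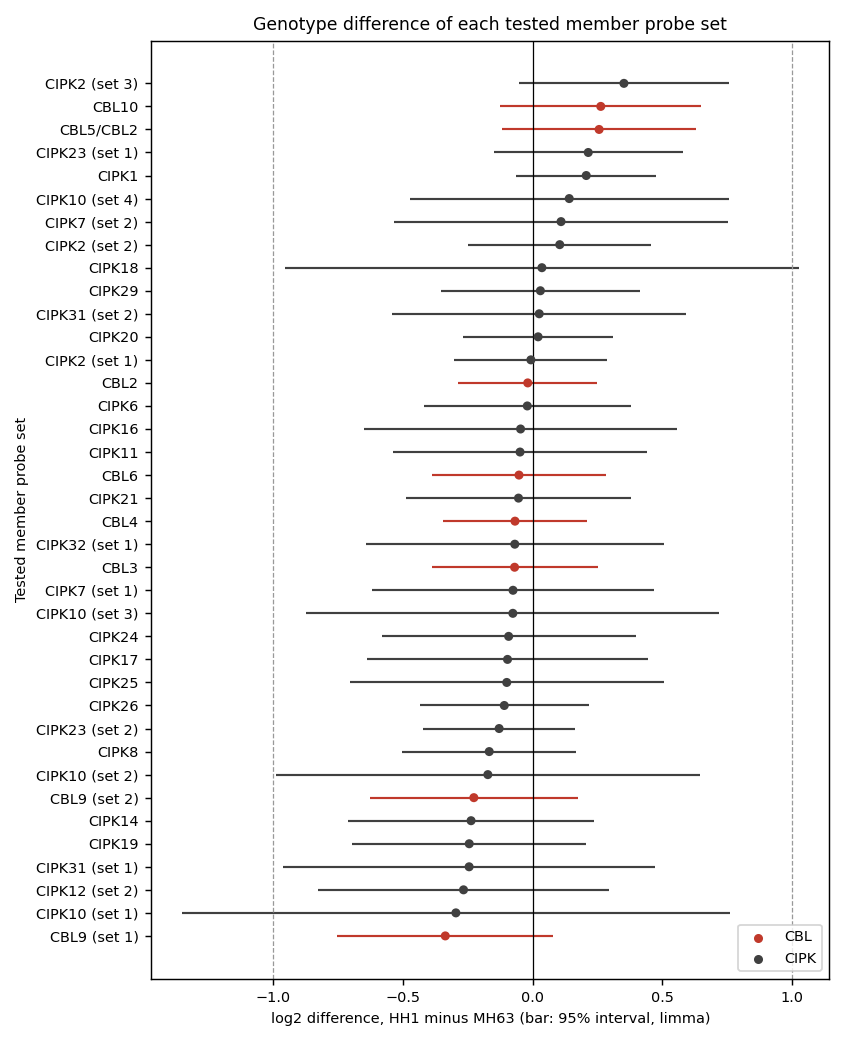
Log2 difference, HH1 minus MH63, of the 38 tested member probe sets, sorted from lowest (bottom) to highest (top), with the 95% interval from limma as a bar. All 38 bars cross 0, and the bars of CIPK18 and of a CIPK10 probe set reach past the dashed lines at -1 and 1.

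Among the sensors, 8 probe sets covered 7 CBL genes, and their log2 differences ran from -0.34 to 0.26. CBL2, CBL3 and CBL6 had close signals in both genotypes. CBL2 (LOC4352701), a sensor of the vacuole membrane in rice, read 538, 489 and 552 in HH1 against 547, 502 and 551 in MH63. Its log2 difference was -0.019 (SE 0.11), with a 95% interval from -0.29 to 0.25, among the narrowest of the members. CBL3 (LOC4333502), which sits at the vacuole membrane in Arabidopsis, read 1292, 1634 and 1379.9 in HH1 against 1619, 1545 and 1346 in MH63. CBL6 (LOC4351575) read 1066, 884 and 1151 in HH1 against 1008, 1015 and 1184 in MH63. For all 3 genes the HH1 arrays lay on both sides of MH63 arrays, and the groups overlapped.

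CBL4 (LOC4339432) is the rice counterpart of SOS3, the sensor that activates sodium export under salt. It read 244, 229 and 224 in HH1 against 229.8, 260.0 and 242 in MH63, means of 232 ± 10.3 and 244 ± 15.2 (SD, n = 3 each). The log2 difference was -0.068 (SE 0.12, unadjusted p = 0.58 in limma), the groups overlapped, and the 6 arrays spanned 0.21. Its kinase partner CIPK24 (LOC4341477), the counterpart of SOS2, read 396, 609 and 379 in HH1 against 541, 458 and 448 in MH63. HH1 replicate 2 held the highest CIPK24 value and the other HH1 arrays the lowest values, with a log2 difference of -0.093 (SE 0.21).

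CBL10, CBL5 and CBL9 had the largest differences among the sensors, none of them past the test. CBL10 (LOC4325933), known in rice for a role in tolerance of flooding during germination, read 434, 608 and 575 in HH1 against 479, 402 and 456 in MH63. HH1 replicates 2 and 3 were above all MH63 arrays and HH1 replicate 1 was not, giving a log2 difference of 0.26 (SE 0.16). CBL5 (LOC4325962, also listed under the synonym CBL2) read 103, 141 and 123 in HH1 against 111, 96.0 and 98.1 in MH63. Again HH1 replicate 1 lay inside the MH63 range, and the log2 difference was 0.26 (SE 0.16). CBL9 (LOC9269084) went the other way, and its first probe set read 60.8, 92.4 and 81.9 in HH1 against 97.8, 94.8 and 100.03 in MH63. All HH1 arrays were below all MH63 arrays, with a log2 difference of -0.34 (SE 0.18) and an unadjusted p of 0.097 (limma). Without HH1 replicate 1, the lowest array, the log2 difference was -0.16 (unadjusted p = 0.29 in limma). The second CBL9 probe set overlapped between the groups, at 94.7, 133 and 122 in HH1 against 133, 124 and 150.0 in MH63. Both CBL9 probe sets carry the suffix for probes that can bind related transcripts, so the gene behind them is uncertain.

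Among the kinases, CIPK23 (LOC4342410) is the one that, together with CBL1, activates the potassium channel AKT1 in rice roots. Its first probe set read 1044, 817 and 752 in HH1 against 769, 783 and 681 in MH63, and its second read 443, 523 and 533 in HH1 against 531, 525 and 579 in MH63. The probe sets disagreed in sign, at 0.21 (SE 0.15) and -0.13 (SE 0.12) on the log2 scale, and neither passed. Without HH1 replicate 1 they were 0.076 and -0.046. OsAKT1, the gene of that channel, read 448, 296 and 471 in HH1 against 558, 352 and 465 in MH63, with a log2 difference of -0.18 (SE 0.24) from a probe set that can bind related transcripts.

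CIPK14 (LOC4351307) takes part in the response of rice cells to microbial elicitors and is nearly identical to CIPK15, so its signal may hold transcripts of both. It read 2509.6, 3763 and 2237 in HH1 against 3316, 3015 and 3464 in MH63. HH1 replicates 1 and 3 were below all MH63 arrays and HH1 replicate 2 above them, so the groups overlapped, with a log2 difference of -0.24 (SE 0.20). Without HH1 replicate 2 the log2 difference was -0.46 (SE 0.10), with an unadjusted p of 0.0033 and an adjusted p of 0.32 (limma), the smallest adjusted p of any member in any alternative.

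The groups did not overlap at 3 of the 38 member probe sets, 2 higher in HH1, where 3.51% of all tested probe sets were higher without overlap, and 1 lower, where 5.27% were. The lower one was the first CBL9 probe set. CIPK1 (LOC4325161), which works in abscisic acid and osmotic stress responses in Arabidopsis, read 1697, 1684 and 1427 in HH1 against 1422, 1327 and 1406 in MH63. HH1 replicate 3 exceeded the highest MH63 array by a narrow margin, and the log2 difference was 0.21 (SE 0.11, unadjusted p = 0.11 in limma). CIPK2 (LOC4344287) had the smallest p of all members, 0.079 (limma), at a probe set with 688, 907 and 689.7 in HH1 against 507, 596 and 686 in MH63. Here 2 of the HH1 arrays lay just above the highest MH63 array, and the log2 difference was 0.35 (SE 0.17). Another CIPK2 probe set, one that can bind related transcripts, overlapped between the groups, with 2354, 2868 and 2167 in HH1 against 2577, 2254 and 2027 in MH63. The remaining CIPK2 probe set did not exceed the background on any array. CIPK19 (LOC4339306) read 272, 438 and 359 in HH1 against 386, 447 and 411 in MH63, with a log2 difference of -0.24 (SE 0.19). It was -0.063 without HH1 replicate 1 and -0.41 without HH1 replicate 2.

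The members varied more among HH1 arrays than among MH63 arrays. The SD of log2 signal was larger in HH1 at 34 of 38 member probe sets (89.5%), against 64.1% of all tested probe sets. Its median over members was 0.32 in HH1 and 0.14 in MH63, where all tested probe sets had 0.20 in HH1 and 0.15 in MH63. For CIPKs the medians were 0.38 in HH1 and 0.15 in MH63, and for CBLs 0.21 in HH1 and 0.12 in MH63. Taken over HH1 replicates 1 and 3 alone, the SD exceeded that of MH63 at 20 of 38 member probe sets (52.6%) and at 43.5% of all, with member medians of 0.17 in HH1 and 0.14 in MH63. Over all tested probe sets the medians were 0.13 in HH1 replicates 1 and 3 and 0.15 in MH63. An SD of 2 values tends to be smaller than one of 3, so these shares and medians are not on the same footing as those with all arrays.

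CIPK10, CIPK18 and CIPK31 had the widest spread among the members above background on all arrays. The 4 probe sets of CIPK10 (LOC4332786) shared a low value in HH1 replicate 1. The first read 216, 671 and 671 in HH1 against 703, 509 and 503 in MH63. The second read 1080.1, 2579 and 2398 in HH1 against 2671, 1909 and 1877 in MH63. The third read 803, 2076 and 1697 in HH1 against 1472, 1384 and 1629 in MH63. HH1 replicate 1 was the lowest of the 6 arrays at each of these, and also at the fourth, with 631, 1304 and 854 in HH1 against 889, 810.5 and 728 in MH63. Relative to the mean of the other 5 arrays, HH1 replicate 1 deviated by -1.49, -1.07, -1.03 and -0.51 on the log2 scale. The log2 differences between genotypes were -0.30, -0.17, -0.08 and 0.14, with standard errors from 0.26 to 0.44. Without HH1 replicate 1 the first 3 turned to 0.25, 0.23 and 0.33, and none passed.

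CIPK18 (LOC4338445) read 527, 226 and 743 in HH1 against 485, 357 and 475 in MH63. The HH1 arrays held both the lowest and the highest value, 1.72 apart on the log2 scale, and the log2 difference between genotypes was 0.04 (SE 0.42). Without HH1 replicate 2 it was 0.52 (SE 0.20), with an adjusted p of 0.53 (limma). CIPK31 (LOC4332665), also known as OsCK1 and listed under the synonym CIPK3, read 142, 165 and 260.3 in HH1 against 311, 188 and 174 in MH63 at its brighter probe set. The highest arrays were MH63 replicate 1 and HH1 replicate 3, and the groups overlapped, with a log2 difference of -0.25 (SE 0.30).

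**Figure D3:**
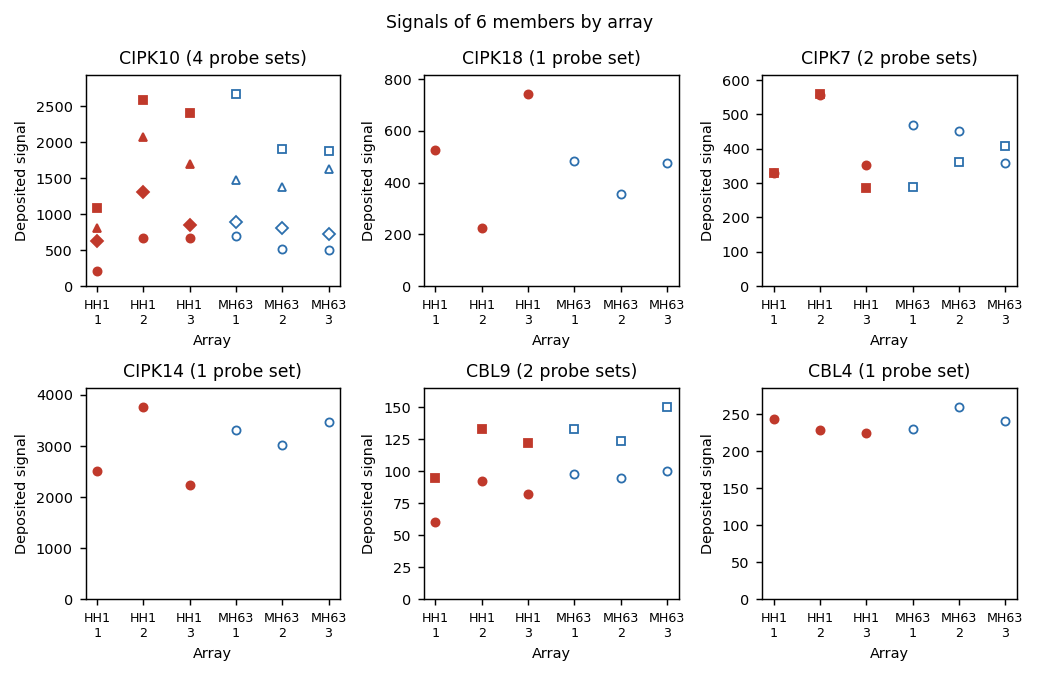
Deposited signal (linear axis from 0) of CIPK10, CIPK18, CIPK7, CIPK14, CBL9 and CBL4 on each array, HH1 filled and MH63 open, with a marker shape for each probe set of a gene. HH1 replicate 1 is the lowest array at all 4 CIPK10 probe sets, HH1 replicate 2 is lowest for CIPK18 and highest for CIPK7 and CIPK14, and CBL4 stays between 224 and 260.0.

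HH1 replicate 2 was the highest of the 6 arrays at 14 of 38 member probe sets (36.8%, against 19.6% of all tested) and the lowest at 10 (26.3%, against 32.0%). HH1 replicate 1 was the lowest at 12 (31.6%, against 16.8%) and the highest at 5 (13.2%, against 17.8%). A limit of 0.5 on the log2 scale was chosen after the values were seen. By that limit HH1 replicate 2 was above the mean of the other 5 arrays at 6 member probe sets (15.8%, against 9.5% of all). It was below that mean at 5 (13.2%, against 9.78%). All 11 belonged to CIPKs. Those above were both probe sets of CIPK7, 2 of CIPK10 and 1 each of CIPK2 and CIPK17. CIPK7 (LOC4333514) read 329.8, 557 and 353 in HH1 against 469, 452 and 358 in MH63 at one probe set and 330.3, 559.9 and 287 in HH1 against 288, 359.9 and 407 in MH63 at the other. CIPK17 (LOC4337736) read 174, 267 and 147 in HH1 against 191, 219.9 and 199 in MH63. In each of these HH1 replicate 2 was the highest array, and the other HH1 arrays lay within or below the MH63 range.

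Those below were CIPK18, CIPK12, CIPK25, CIPK32 and CIPK11. CIPK32 (LOC4351419) read 669, 376 and 697 in HH1 against 567, 587 and 607 in MH63. CIPK25 (LOC4341236) read 129, 68.9 and 119 in HH1 against 119.9, 114 and 95.1 in MH63. CIPK11 (LOC107275263) read 144, 84.1 and 119 in HH1 against 121, 115 and 115 in MH63, at a probe set that can bind related transcripts. At all 3, HH1 replicate 2 was the lowest array and another HH1 array the highest. Without HH1 replicate 2, 5 of 37 tested member probe sets had an unadjusted p under 0.05, where 9.03% of all tested probe sets did, and none passed after adjustment. They were CIPK14, CIPK19, CIPK24 and the first CBL9 probe set, with log2 differences from -0.47 to -0.31, and CIPK18, with 0.52.

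**Figure D4:**
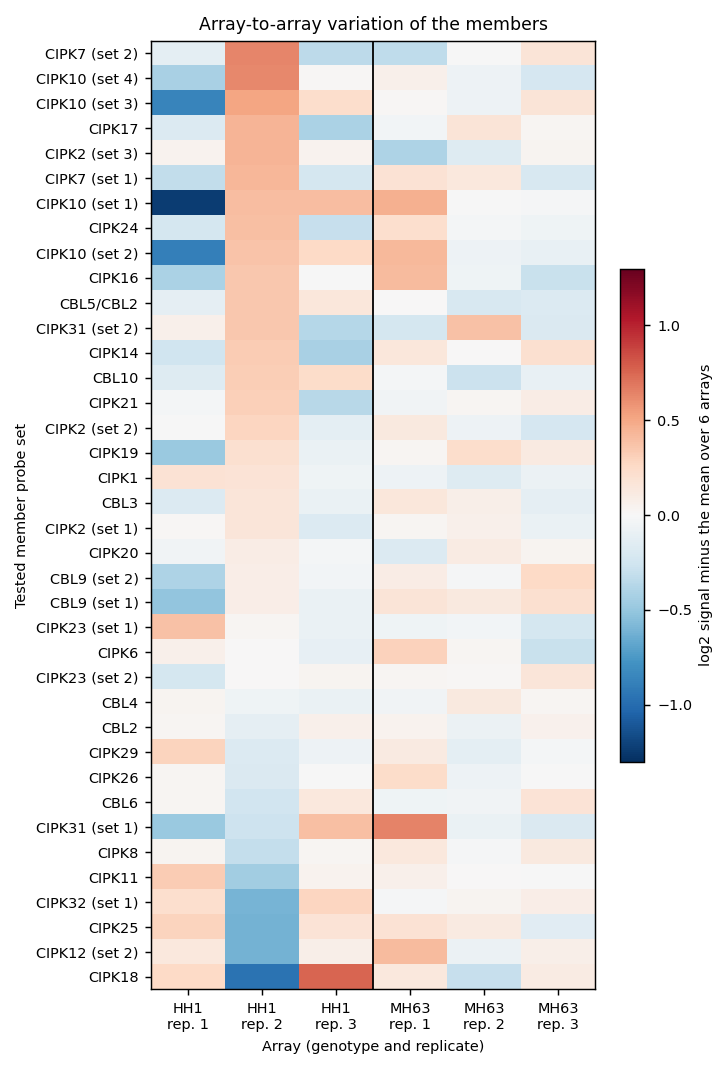
Log2 signal of the 38 tested member probe sets minus their mean over the 6 arrays (colour), with HH1 replicates 1 to 3 left and MH63 replicates 1 to 3 right, sorted by the deviation of HH1 replicate 2 from the other arrays. Deep colours are mostly in the HH1 columns, with CIPK7 and CIPK10 high and CIPK18, CIPK12, CIPK25 and CIPK32 low in replicate 2, and CIPK10 low in replicate 1.

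The remaining measured kinases showed small differences with overlapping groups. CIPK6, CIPK8, CIPK16, CIPK20, CIPK21, CIPK26 and CIPK29 had log2 differences from -0.17 for CIPK8 to 0.03 for CIPK29, with standard errors from 0.12 to 0.25. CIPK21, for example, read 302, 382 and 240.4 in HH1 against 299.6, 314 and 329.9 in MH63. CIPK6 read 423, 405 and 376 in HH1 against 495, 410.2 and 331 in MH63. CIPK8 read 367, 288 and 365 in HH1 against 395, 354 and 391 in MH63, and CIPK16, at a probe set that can bind related transcripts, 206, 350.0 and 272 in HH1 against 365, 265 and 224 in MH63. For all 3 the genotypes overlapped. CIPK12, CIPK20 and CIPK26 stood close to the background, and CIPK26 read 58.7 to 68.2 in HH1 against 63.8 to 78.9 in MH63, CIPK20 41.7 to 46.0 in HH1 against 38.0 to 46.2 in MH63, and the tested CIPK12 probe set 28.6 to 48.3 in HH1 against 41.4 to 58.1 in MH63. Some kinase genes lie side by side in the rice annotation, with no other gene between CIPK29 and CIPK2, CIPK30 and CIPK12, or CIPK16 and CIPK27, and 1 gene between CIPK13 and CIPK5. Of these pairs CIPK29 and CIPK2 were both detected. CIPK29 (LOC4344285) read 209, 151 and 163 in HH1 against 185, 157 and 168 in MH63, with HH1 replicate 2 lowest, while both CIPK2 probe sets above background were highest in HH1 replicate 2.

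Genes on which CBL-CIPK complexes act, or which are related sensors and kinases, were followed as lists matched by name. No gene matched the names of the sodium/proton exchangers or proton pumps, so these were not analysed here. Over all other lists, 0 of 161 tested probe sets passed in either direction, and 4 had an unadjusted p under 0.05, where 4.01% of all tested probe sets did, so that the share in the lists was not above that of all. Some of the genes named below had the smallest p values of their lists. Others were named outside that rule, among them OsHAK1, OsHAK5, SnRK1A, PDC1 and Adh2. Among potassium and sodium channels and transporters, 0 of 22 tested probe sets passed, with 8 above 0 and a median log2 difference of -0.050. The high-affinity potassium transporter gene OsHAK1 read 1105, 867 and 977 in HH1 against 958, 744 and 791 in MH63 at 1 of its 2 probe sets (log2 difference 0.24, SE 0.15), and 1 of the 2 OsHAK5 probe sets read 7732, 7728 and 7065 in HH1 against 6444, 7187 and 7535 in MH63 (0.09, SE 0.10). The smallest p values in this list belonged to the vacuolar potassium channel gene OsKCO1, at 0.33 (SE 0.15), and to OsKCO2 at -0.38 (SE 0.19). They were followed by 1 of the 2 OsHAK10 probe sets, at -0.23 (SE 0.14).

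Among nitrate and ammonium transporters, 0 of 10 tested probe sets passed, with 4 above 0 and a median of -0.053. OsAMT3;1 had the smallest p, at 38.3, 39.4 and 47.1 in HH1 against 49.4, 47.4 and 59.5 in MH63, near the reporter-probe level and at 1 of its 2 probe sets. Next came OsAMT3;2 at 0.13 (SE 0.14) and OsAMT2;2 at -0.18 (SE 0.19). These probe sets of OsAMT3;1 and OsAMT3;2 can bind related transcripts. The NADPH oxidase gene OsrbohB, whose family makes reactive oxygen in signalling, had a log2 difference of 0.10 (SE 0.17).

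Phosphatases of the PP2C class, some of which bind CIPKs and oppose them in Arabidopsis, had 0 of 61 tested probe sets past the test, with 23 above 0 and a median of -0.044. At 1 of its 3 probe sets, the one with the smallest p, OsPP2C75 read 66.8, 63.2 and 72.9 in HH1 against 45.8, 55.2 and 51.5 in MH63 (log2 difference 0.41, SE 0.13, unadjusted p = 0.014 in limma). OsABIL2, a phosphatase of the abscisic acid pathway, read 220.4, 195 and 198 in HH1 against 245, 239 and 265 in MH63 (-0.29, SE 0.12), and OsPP2C68 had -0.33 (SE 0.14). These genes were chosen by their p. In all 3 the groups did not overlap, where 3.51% of all tested probe sets were higher and 5.27% lower without overlap. No adjusted p was below 1.0. OsPP2C30, named here after its values were seen, read 328, 225 and 64.8 in HH1 against 106, 98.6 and 93.9 in MH63. Without HH1 replicate 3 its log2 difference was 1.45 (SE 0.20) with an adjusted p of 0.037 (limma), the only list gene to pass in any alternative, and with all arrays it was 0.76 (SE 0.55).

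The other SnRK kinases, relatives of the CIPKs, had 0 of 18 tested probe sets past the test, with 6 above 0 and a median of -0.023. OsSAPK1, a kinase of the osmotic stress response, read 469, 505 and 501 in HH1 against 641, 563 and 627 in MH63 without overlap (log2 difference -0.31, SE 0.11, unadjusted p = 0.028 and adjusted p = 1.0 in limma). It was chosen by its p, and 5.27% of all tested probe sets were lower without overlap. OsSAPK5 and OsSAPK8 had -0.19 and -0.15 (SE 0.12 each). The other calcium sensors, calmodulins and calcium-dependent kinases, had 0 of 42 tested probe sets past the test, with 28 above 0 and a median of 0.058. The calmodulin-like gene CML9 read 144, 189 and 134 in HH1 against 117, 116 and 123 in MH63 (0.37, SE 0.16). CML27 had 0.41 (SE 0.20) at 1 of its 2 probe sets, and OsCPK4 had 0.33 (SE 0.18).

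The low-oxygen list follows a pathway in which CIPK15 activates the kinase SnRK1A, the transcription factor MYBS1 and the amylase gene AMY3D, beside fermentation genes. SnRK1A is counted in this list and among the SnRK kinases. Of the 9 tested probe sets 0 passed, with 2 above 0 and a median of -0.12. SnRK1A had log2 differences of 0.10 (SE 0.19) and -0.010 (SE 0.12) at its 2 probe sets, and PDC3, AMY3D and OsMYBS1 had 0.14, -0.29 and -0.33 (SE 0.16, 0.37 and 0.45). The AMY3D value is from 1 of its 2 probe sets. The fermentation genes differed between arrays of each genotype. PDC1, a pyruvate decarboxylase, read 1641, 8381 and 236 in HH1 against 3159, 4506 and 732 in MH63, and Adh2, an alcohol dehydrogenase, read 4476, 10969 and 4852 in HH1 against 7382, 7008 and 5858 in MH63. The 10 probe sets of the list summed to 11060, 32583 and 10686 in HH1 replicates 1, 2 and 3 and to 20005, 20361 and 11926 in MH63 replicates 1, 2 and 3. HH1 replicate 2 had the highest sum of this list. By the limit of 0.5 among tested probe sets, it was high for CIPK7, CIPK17, 2 of the 4 CIPK10 probe sets and a CIPK2 probe set. It was low for CIPK11, CIPK12, CIPK18, CIPK25 and CIPK32. The part of low oxygen in the members' values was not tested.

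**Figure D5:**
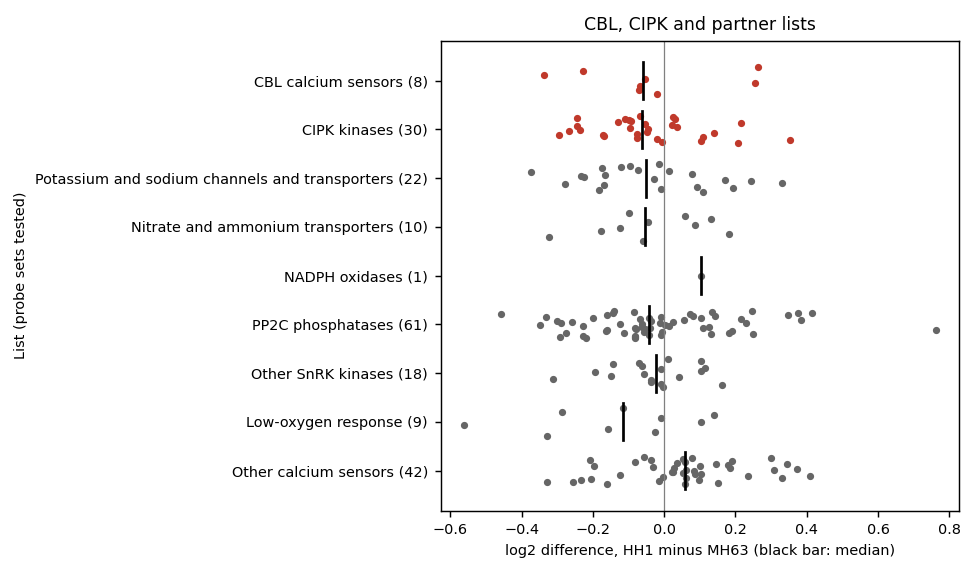
Log2 difference, HH1 minus MH63, of each tested probe set (points) in the CBL and CIPK families (red) and in 7 partner lists (grey), with the median of each list as a black bar and the number of tested probe sets in brackets. List medians lie between -0.12 and 0.10, and the point farthest from 0 is OsPP2C30 at 0.76.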

How the data were processed

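Root RNA was measured on 1 Affymetrix rice array per sample, with 3 samples of HH1 and 3 of MH63, grouped by their titles. The values are the probe set intensity as the authors deposited it, on a linear scale. MAS5 is named in the submitters' processing notes, with no version, and the sources used here do not give how arrays were scaled.

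Gene names came from the platform's annotation, updated by gene number through RefSeq assembly ASM3414082v1, in which all 39 members matched. The array's build is not given, so no coordinates are printed. Of 42 member probe sets, 6 have the suffix _s_at or _x_at and can bind related transcripts. The members, the name lists and the tests were chosen with earlier results of these data known.

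Signals were used as log2 values. After 187 controls were set aside, the brighter 50% by mean over all arrays (28597 probe sets) went into limma 3.58.1 under R 4.3.3, using eBayes with a trend. Tests were two-sided, and the Benjamini-Hochberg adjusted p had to be under 0.05. The fit was also run on simulated arrays with the same spread in both genotypes. The larger spread among the HH1 arrays was not simulated. No list was tested as a set. Values are given for every CBL, for CIPK14, CIPK23 and CIPK24, for the 8 tested member probe sets with the smallest p, for the 6 largest differences and the 5 widest ranges among those above background on all arrays, and for up to 3 genes per list by p. Other members were named after their values were seen, and some list genes were named outside the rule by p. Alternatives covered scaling, the filter, an offset, the variance model, array weights, a replicate block, each array left out and averaging the probe sets of each gene. The titles do not say whether same-numbered arrays were paired, and the main fit treated them as unpaired. The correlations of their deviations from the group means were -0.12, 0.45 and 0.31. Figures were drawn with matplotlib 3.10.9.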

Additional observations from a re-analysis of the deposited data

How the results depend on the processing

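The count of members past the adjusted threshold was 0 in all 15 alternatives. Over all tested probe sets the count of 32 became 54 with no brightness filter, 8 in the brightest 25% (fewer probe sets tested), 50 under array weighting, 17 with a replicate block, and 0 to 306 when 1 array was left out. Leaving out HH1 replicate 1 gave the 0, with 843 probe sets below 0.05 before adjustment in limma. The count was 26 without HH1 replicate 2, 306 without HH1 replicate 3, and 1, 20 and 13 without MH63 replicates 1, 2 and 3. The cause of these changes in the count was not tested. For the partner lists, leaving out 1 array gave 0 to 1 calls, the 1 being OsPP2C30 without HH1 replicate 3. Of 20 member probe sets followed, 11 kept their sign in every alternative that tested them, and all 20 did with quantile normalization and median centring. With array weights CBL2 turned to 0.017 on the log2 scale. Leaving out 1 array gave log2 differences from -0.062 to 0.033 for CBL2, -0.17 to 0.0026 for CBL3, -0.13 to 0.056 for CBL6, -0.31 to 0.032 for CIPK24, -0.50 to 0.014 for CIPK31 and -0.33 to 0.52 for CIPK18. Among those that kept their sign it gave -0.47 to -0.16 and -0.33 to -0.084 for the CBL9 probe sets, -0.11 to -0.021 for CBL4, 0.17 to 0.41 for CBL10, 0.15 to 0.38 for CBL5, -0.46 to -0.085 for CIPK14, -0.41 to -0.063 for CIPK19, 0.16 to 0.29 for CIPK1, 0.22 to 0.46 for CIPK2, and 0.076 to 0.31 and -0.18 to -0.046 for the CIPK23 probe sets. For the first 3 CIPK10 probe sets it gave -0.57 to 0.25, -0.40 to 0.23 and -0.35 to 0.33. Members below the brightness filter, at signals under the reporter-probe level, carry little information on either genotype.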
